A study of Mus musculus with 16 samples.

Results

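The Low 5mC and High 5mC flight mice of this series were compared with each other, by the gene counts of their skin. They are 10 of the 16 samples, with 4 Low 5mC mice and 6 High 5mC mice, and the members were chosen by the group named in the labels. All 10 were female BALB/cAnNTac mice, about 10 to 16 weeks old, that were flown to the International Space Station on the Rodent Research Reference Mission-1, and hind limb skin was taken from each. Global cytosine methylation of the skin was measured by ELISA in the study, which split its flown mice on that value into the responder (Low) and the non-responder (High) cohorts of exposure to space environment (ESE). The other 6 samples are ground control mice, which were housed on the ground and are used here to estimate the spread between mice. The labels name no transgene, drug or diet.

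The flown mice came from both arms of the mission, as given in the study's sample sheet. Mice of the ISS arm were killed on orbit and mice of the LAR arm were returned to Earth alive. Low 5mC replicates 1 and 2 and High 5mC replicates 1 to 3 were of the ISS arm, and Low 5mC replicates 3 and 4 and High 5mC replicates 4 to 6 were of the LAR arm. Each library came from a separate mouse, so the spread between replicates is a spread between animals. The groups were defined by a measured property of the same skin, and not by a treatment that differed between them.

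Cytosine methylation is copied to new DNA strands by DNMT1, set on unmethylated DNA by DNMT3A and DNMT3B, and oxidised by the TET enzymes as a first step of its removal. Methylation of CpG sites in a promoter is known to accompany silencing of germline, imprinted and other genes. The methyl groups come from S-adenosylmethionine, which is made in the methionine cycle. Its by-product homocysteine is either turned back into methionine or drawn off by cystathionine beta-synthase (CBS). The counts themselves hold no measure of methylation.

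The promoters of 4 genes are shown. Araf, Flt1 and Vegfb were chosen because their methylation was measured in the study, and Cbs because it had the widest gap between the groups among genes with an average log2 CPM over 3. Each sequence is the 300 bases from 250 before to 50 after the start of the gene in RefSeq, build GRCm38.p6, written 5′ to 3′ on the strand of the gene with each CG in capitals. The Araf window lies at chrX:20848293-20848592 on the plus strand and holds 14 CG. The Flt1 window lies at chr5:147725962-147726261 on the minus strand and holds 29 CG, and the Vegfb window at chr19:6987602-6987901 on the minus strand holds 31 CG. The Araf region that the paper measured by targeted bisulfite sequencing meets the Araf window only at its 3′ end. The CG marked in the Araf window thus lie outside that region. The Flt1 and Vegfb windows lie within the regions measured for those genes. The Cbs window lies at chr17:31637156-31637455 on the minus strand and holds 22 CG. A CG was found in 94.57% of all 32851 windows of this length, with a median of 7 per window. The share of windows that hold fewer CG was 63.71% for Araf, 87.07% for Flt1, 89.44% for Vegfb and 76.9% for Cbs.
Araf: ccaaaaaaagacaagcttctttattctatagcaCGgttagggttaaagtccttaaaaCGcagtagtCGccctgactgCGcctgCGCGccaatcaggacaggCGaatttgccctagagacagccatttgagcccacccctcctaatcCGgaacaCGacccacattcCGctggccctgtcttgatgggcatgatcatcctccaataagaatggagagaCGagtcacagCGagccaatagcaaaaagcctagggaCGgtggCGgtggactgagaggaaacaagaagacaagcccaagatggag
Flt1: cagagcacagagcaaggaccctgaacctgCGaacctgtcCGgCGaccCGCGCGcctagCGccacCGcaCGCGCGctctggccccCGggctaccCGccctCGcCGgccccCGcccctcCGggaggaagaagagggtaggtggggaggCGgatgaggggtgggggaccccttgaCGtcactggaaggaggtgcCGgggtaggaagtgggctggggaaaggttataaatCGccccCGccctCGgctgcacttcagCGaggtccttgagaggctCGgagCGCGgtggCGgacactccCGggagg
Vegfb: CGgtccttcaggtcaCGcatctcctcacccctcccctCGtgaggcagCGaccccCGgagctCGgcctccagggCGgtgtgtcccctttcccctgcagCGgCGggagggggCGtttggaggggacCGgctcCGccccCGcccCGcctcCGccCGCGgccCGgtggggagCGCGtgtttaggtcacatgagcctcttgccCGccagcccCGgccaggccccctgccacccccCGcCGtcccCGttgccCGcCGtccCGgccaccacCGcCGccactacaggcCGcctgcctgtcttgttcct
Cbs: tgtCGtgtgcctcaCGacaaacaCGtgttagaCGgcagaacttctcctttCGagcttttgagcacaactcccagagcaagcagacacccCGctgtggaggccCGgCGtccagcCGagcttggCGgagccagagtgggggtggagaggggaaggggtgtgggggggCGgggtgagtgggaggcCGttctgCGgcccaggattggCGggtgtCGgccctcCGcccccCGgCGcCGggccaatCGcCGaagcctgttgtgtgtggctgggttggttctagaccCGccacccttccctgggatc

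The libraries were deep enough to measure most genes of the table, but their RNA was degraded. The total count was 11400596 to 21781179 in Low 5mC libraries and 4159342 to 17549724 in High 5mC libraries. The RNA integrity number, a score of how whole the RNA is, was 1.5 to 2.1 in Low 5mC mice and 1.2 to 1.9 in High 5mC mice (exact permutation p = 0.524, two-sided, adjusted p = 0.857 over 12 library values). Markers of keratinocytes were present in every library, with a sum of 4 markers of 2393 to 10901 CPM, the counts scaled to the library total, in Low 5mC mice and 3266 to 15781 CPM in High 5mC mice. A pair of libraries stood apart by their level of liver or fat transcripts. Low 5mC replicate 1 was rich in liver transcripts, with 2231 CPM over the 6 hepatocyte markers in the table against 1.10 to 120.7 CPM in the other Low 5mC libraries and 0.769 to 23.4 CPM in High 5mC libraries. High 5mC replicate 4 was rich in fat transcripts, with 3241 CPM over 5 adipocyte markers, while Low 5mC libraries had 143.9 to 308.0 CPM and the median of the High 5mC libraries was 250.9 CPM. Values without one or both of these libraries are given beside many of the results that they changed. In bulk skin, fewer cells of a type and less RNA per cell cannot be told apart.

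No gene passed the test between Low 5mC and High 5mC mice. Of 14107 genes tested by edgeR's quasi-likelihood test, 0 were called higher and 0 lower in Low 5mC mice at an adjusted p under 0.05 (0% of the genes tested in each direction). The smallest adjusted p was 0.879. At an unadjusted p under 0.05 there were 306 genes, 174 of them higher (1.23%) and 132 lower (0.936%) in Low 5mC mice, where 5% of the genes tested would be 705. The median log2 fold change over all genes was 0.01, and 51.7% of the genes had a positive value. The median standard error (SE) of a log2 fold change was 0.37, and 0.29 for the 8958 genes with an average log2 CPM over 3, with a biological coefficient of variation of 0.556. DESeq2 was the only other test of those run that called genes, and it called 5: Hpx, F2 and Itih4 higher and Serinc4 and Sycp3 lower in Low 5mC mice, with adjusted p of 0.01, 0.01, 0.0379, 0.0114 and 0.0292. The adjusted p of each of these 5 genes ranged up to 1 over the other alternatives. The arms themselves were not compared. Whether the difference between Low 5mC and High 5mC mice was itself unequal in the LAR and the ISS arm was tested as an interaction, which was called for 0 genes, with 541 at an unadjusted p under 0.05 and a smallest adjusted p of 0.619. The values below are therefore descriptions of genes that did not pass, unless a sentence says otherwise. Counts of list members at an unadjusted p under 0.05 stand beside 1.23% higher and 0.936% lower over all genes tested.

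The transcript levels of the enzymes that write and erase methylation overlapped between the 2 groups. Dnmt1, the maintenance methyltransferase, had 194.1, 181.9, 157.3 and 267.9 CPM in Low 5mC mice, and its lowest, median and highest values in High 5mC mice were 107.4, 230.5 and 277.1 CPM. The groups overlapped over most of their range, and the lowest value was that of the fat-rich High 5mC replicate 4. Its log2 fold change was -0.10 (SE 0.25, 95% interval -0.63 to 0.42, adjusted p = 1 in edgeR). Dnmt3a, a de novo methyltransferase, had 47.8, 116.1, 60.8 and 38.05 CPM in Low 5mC mice against 39.3, 60.0 and 74.2 CPM as lowest, median and highest in High 5mC mice. Its highest value was that of Low 5mC replicate 2, and the log2 fold change was 0.21 (SE 0.27, interval -0.36 to 0.78). Dnmt3b, the other de novo enzyme, was expressed at 4.24 to 8.32 CPM in Low 5mC mice and 3.34 to 5.55 CPM in High 5mC mice, with a log2 fold change of 0.17 (SE 0.28, interval -0.43 to 0.76).

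The TET genes showed the same overlap. Tet2 had 283.6, 148.3, 148.9 and 335.9 CPM in Low 5mC mice, and a lowest, median and highest of 149.2, 188.9 and 365.8 CPM in High 5mC mice. Within the Low 5mC group, replicates 1 and 4 were about 2 times as high as replicates 2 and 3. The log2 fold change of Tet2 was 0.03 (SE 0.31, interval -0.62 to 0.68), that of Tet3 was 0.03 (SE 0.26, interval -0.51 to 0.57) and that of Tet1, the least abundant of the 3, was 0.18 (SE 0.41, interval -0.69 to 1.05). Over the list of DNA methylation writers, erasers and readers, 23 genes were tested, 15 had a positive and 8 a negative log2 fold change, and 0 had an unadjusted p under 0.05. Their median was 0.05, beside 0.01 for all genes, and their values lay between -0.36 and 0.80. The member at the upper end was Hells, a chromatin remodeller needed for DNA methylation, with 67.1, 5.75, 14.5 and 51.1 CPM in Low 5mC mice against 4.35, 22.9 and 32.5 CPM as lowest, median and highest in High 5mC mice. In Hells, Low 5mC replicates 1 and 4 were above all other flown mice, and without the liver-rich and the fat-rich library the value of Hells was 0.02.

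**Figure D1:**
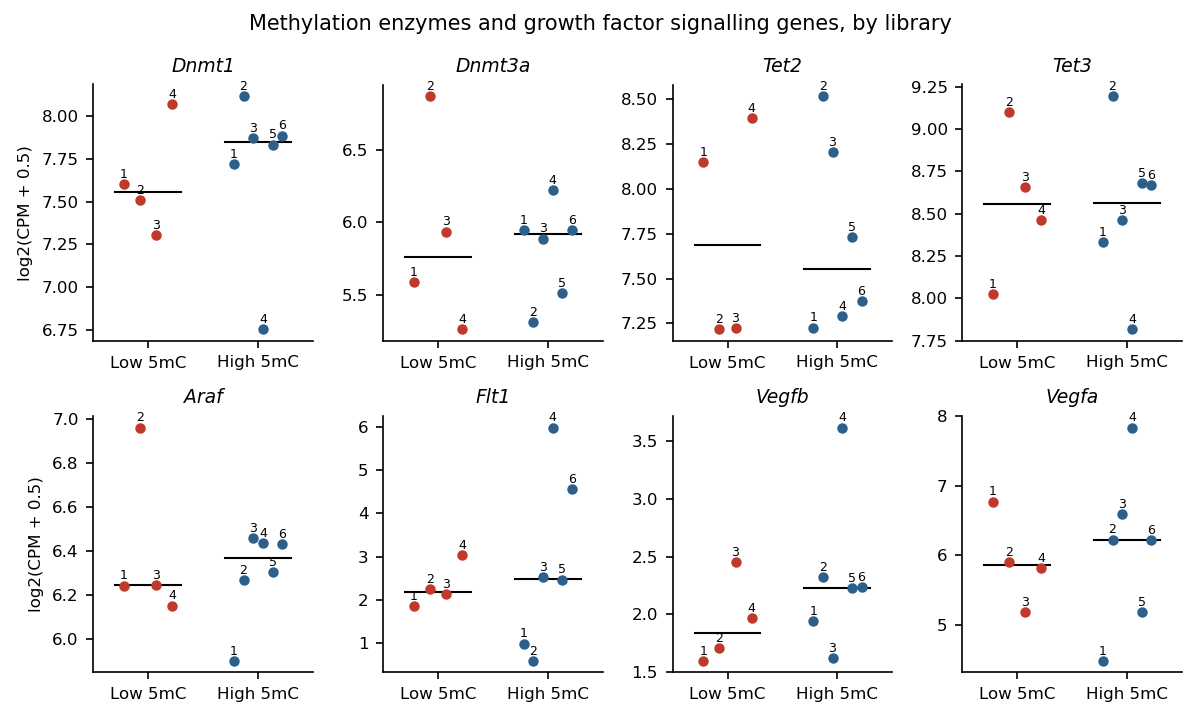
Level of methylation enzymes and growth factor signalling genes in each flown mouse, as log2(CPM + 0.5), with Low 5mC mice in red and High 5mC mice in blue, replicate numbers above the points and group medians as bars. The groups overlap in all 8 genes, and High 5mC replicate 4 is the highest point of Flt1, at 62.7 CPM, and of Vegfb, at 11.7 CPM.

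Araf, which encodes a kinase of the RAF, MEK and ERK pathway, had 75.3, 123.9, 75.5 and 70.7 CPM in Low 5mC mice. In High 5mC mice its lowest, median and highest values were 59.4, 82.2 and 87.4 CPM. Low 5mC replicate 2 lay above all other mice, and the other 3 Low 5mC mice lay within the range of the High 5mC mice. Over all mice the log2 fold change was 0.13 (SE 0.19, interval -0.27 to 0.52, adjusted p = 1 in edgeR), and it was -0.10 without Low 5mC replicate 2. Both ends of the interval lie within a 2-fold difference. The gene spans positions 20848543 to 20860521 of chromosome X (mm10).

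Flt1, the VEGF receptor 1, had 3.13, 4.26, 3.87 and 7.66 CPM in Low 5mC mice and a lowest, median and highest of 1.01, 5.13 and 62.7 CPM in High 5mC mice. The 62.7 CPM belonged to the fat-rich replicate 4 and the next, 23.0 CPM, to replicate 6. This gave a log2 fold change of -1.80 (SE 1.06, interval -4.06 to 0.46), and -0.49 without the liver-rich and the fat-rich library. Vegfb, a VEGF family ligand, had 2.53, 2.77, 4.98 and 3.42 CPM in Low 5mC mice against 2.58, 4.20 and 11.7 CPM as lowest, median and highest in High 5mC mice, with a log2 fold change of -0.58 (SE 0.46) and of -0.06 without both libraries. Vegfa, the main ligand of vessel growth, had 108.9, 59.1, 35.8 and 55.7 CPM in Low 5mC mice against 21.9, 74.1 and 227.8 CPM, a log2 fold change of -0.45 (SE 0.53). The sign of Vegfa turned without the fat-rich library, to 0.08, and was negative without both libraries, at -0.31. Kdr, the VEGF receptor 2, had 4.94, 1.19, 4.01 and 9.52 CPM in Low 5mC mice, and in High 5mC mice it was at 0 in replicate 1, at a median of 2.11 CPM and at 163.4 CPM in replicate 4. Its log2 fold change was -2.80 (SE 1.60), and -0.84 without both libraries. Within the ISS arm the values of Flt1, Kdr and Vegfa were positive, at 0.45, 1.20 and 0.38, and within the LAR arm they were -2.39, -3.31 and -1.30. All of these receptors and ligands were highest in the fat-rich library.

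Across the 33 tested genes of VEGF ligands, receptors and signaling, 12 values were positive and 21 negative, 0 had an unadjusted p under 0.05, and the median log2 fold change was -0.14, or -0.04 without both libraries, 0.05 within the ISS arm and -0.18 within the LAR arm. The 24 tested endothelial markers had a median of -1.39, with 4 positive and 20 negative values and 0 at an unadjusted p under 0.05. Their summed level was 100.4, 75.4, 129.5 and 120.5 CPM in Low 5mC mice, and in High 5mC mice it was 965.3 CPM in replicate 4, 296.9 CPM in replicate 6 and 36.6 to 90.5 CPM in the others. Without both libraries the median of the endothelial list was -0.23. Within the ISS arm it was 0.26, so that the direction turned, and within the LAR arm -1.94. The minor-strand share of the reads, a library value described below with the opposite-strand genes, was a covariate in a further fit. There the median of the endothelial list was -3.19, with 16 of the 24 lower at an unadjusted p under 0.05. The VEGF list had a median of -0.23 there, with 8 of the 33 lower and 0 higher at this threshold. The values of Flt1, Kdr, Vegfb and Vegfa were -3.94, -6.40, -1.59 and -0.85 with this covariate. In that fit 764 of all 14107 genes tested were lower at this threshold, against 132 without the covariate. The adipocyte genes were highest in the same 2 High 5mC mice, and their part in the result was not tested. Erg, a transcription factor of endothelium, had the smallest p of the list, with 3.07, 3.27, 1.78 and 2.08 CPM in Low 5mC mice against 0.828, 4.97 and 18.9 CPM as lowest, median and highest in High 5mC mice (log2 fold change -1.36, SE 0.67, and -0.78 without both libraries). Of the 34 tested Raf, MEK and ERK genes, 22 values were positive and 12 negative, with a median of 0.05. Dusp5, an ERK phosphatase, was the 1 member with an unadjusted p under 0.05, at 12.6, 91.0, 235.4 and 6.25 CPM in Low 5mC mice against 5.29, 12.9 and 52.0 CPM in High 5mC mice (log2 fold change 2.30, SE 0.90). Low 5mC replicates 2 and 3 carried that difference, and replicates 1 and 4 lay within the range of High 5mC mice.

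Cbs, the enzyme that condenses homocysteine with serine, had the largest gap between the groups of all genes with an average log2 CPM over 3. It had 91.3, 84.6, 90.8 and 55.8 CPM in Low 5mC mice, and 19.98, 38.9 and 46.3 CPM as lowest, median and highest in High 5mC mice. The lowest Low 5mC mouse was thus above the highest High 5mC mouse, and the ground control mice had 24.9 to 61.1 CPM with a median of 41.7 CPM. The log2 fold change was 1.19 (SE 0.27, interval 0.62 to 1.76), and the adjusted p over all genes was 0.879, so the gene did not pass. The range over the fits that left out 1 mouse was 1.04 to 1.30, and without both the liver-rich and the fat-rich library it was 0.96. Within the arms it was 1.25 (ISS) and 1.12 (LAR). Cbs lies on chromosome 17, from 31612623 to 31637205 on the minus strand (mm10), and its promoter window is printed above.

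The methionine cycle and one-carbon enzymes, Cbs among them, gave no common direction. Of 26 tested, 17 values were positive and 9 negative, 2 were higher at an unadjusted p under 0.05 (1.23% over all genes tested), and the median was 0.19, or -0.07 without both libraries. The second was Gnmt, which methylates glycine with S-adenosylmethionine and is abundant in liver, with 62.2, 2.77, 1.26 and 4.39 CPM in Low 5mC mice against 0.512, 2.43 and 10.4 CPM as lowest, median and highest in High 5mC mice. Its log2 fold change was 2.28 (SE 1.03), and -0.41 without the liver-rich Low 5mC replicate 1, which alone held the high value. Ahcyl2, a relative of the enzyme that cleaves S-adenosylhomocysteine, had 29.1, 32.5, 27.9 and 30.5 CPM in Low 5mC mice and 30.7, 36.2 and 63.8 CPM in High 5mC mice (log2 fold change -0.42, SE 0.20). Shmt1, which moves a carbon from serine to folate, had a log2 fold change of 0.42 (SE 0.22), with 24.6 to 41.4 CPM in Low 5mC mice and 18.8 to 33.0 CPM in High 5mC mice.

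Most of the genes with the smallest p on the higher side are known for their expression in liver. Hpx, the heme-binding plasma protein hemopexin, had 41.9, 3.57, 3.64 and 0.366 CPM in Low 5mC mice against 0.295, 0.512 and 1.48 CPM as lowest, median and highest in High 5mC mice (log2 fold change 4.43, SE 0.98, adjusted p = 0.879 in edgeR). Replicates 1 to 3 of Low 5mC lay above all High 5mC mice and replicate 4 within their range. Without Low 5mC replicate 1 the log2 fold change was 2.05. Alb, albumin, had 971.7, 56.9, 0.744 and 0.610 CPM in Low 5mC mice and 0.296, 6.73 and 17.8 CPM in High 5mC mice, so that replicates 1 and 2 were above and replicates 3 and 4 below the High 5mC median. Its log2 fold change was 5.11 (SE 1.52), and 1.32 without replicate 1. Itih4, named after its values were seen because DESeq2 called it, encodes an inter-alpha-inhibitor heavy chain and had 115.8, 8.22, 0.595 and 0.397 CPM in Low 5mC mice against 0, 0.324 and 3.09 CPM as lowest, median and highest in High 5mC mice.

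Apoa5, Itih3, Ttr, F2, Serpinc1 and Apoa1 followed the same order, with 48.2 to 474.1 CPM in Low 5mC replicate 1, 2.58 to 16.5 CPM in replicate 2 and 0 to 1.19 CPM in replicates 3 and 4. In High 5mC mice these 6 genes had at most 4.82 CPM. They encode, in that order, an apolipoprotein of triglyceride turnover, an inter-alpha-inhibitor heavy chain, transthyretin, prothrombin, antithrombin and the main protein of HDL. The list of liver genes had 26 tested members, of which 24 had a positive value and 19 an unadjusted p under 0.05, all higher, against a background of 1.23% of all genes. The median was 5.11, and 1.18 without Low 5mC replicate 1, when 2 remained at an unadjusted p under 0.05. By arm, the median was 6.16 in the ISS arm, which holds Low 5mC replicates 1 and 2, and -0.98 in the LAR arm. The source of the liver transcripts in Low 5mC replicates 1 and 2 was not tested.

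Intestinal transcripts had no common pattern over the mice. The 6 tested genes of the intestinal list had 5 positive values and 1 negative value, 2 of them higher at an unadjusted p under 0.05 (1.23% over all genes tested), with a median log2 fold change of 0.69, or 0.24 without Low 5mC replicate 1. They summed to 745.1, 433.2, 2057 and 259.9 CPM in Low 5mC mice and 140.7 to 1033 CPM in High 5mC mice with a median of 398.4 CPM. Most of each sum was Fcgbp, a mucus protein, at 461.4, 414.7, 2030.5 and 252.0 CPM in Low 5mC mice against 130.7, 384.9 and 1019.2 CPM as lowest, median and highest in High 5mC mice (log2 fold change 0.69, SE 0.81). Pyy, a gut hormone, had the negative value, -0.69 (SE 0.94), at 0.458 to 1.39 CPM in Low 5mC mice and 0.887 to 3.71 CPM in High 5mC mice. Among the flown mice, Low 5mC replicate 1 was highest in Muc2 and Clca1, the 2 higher members of the list, and in Npc1l1, which is not in the list. Muc2, the gel-forming mucin of the gut, had 106.9, 2.48, 1.64 and 1.43 CPM in Low 5mC mice and 0.769, 1.40 and 3.32 CPM as lowest, median and highest in High 5mC mice (log2 fold change 4.13, SE 0.99), and 0.15 without that library. Npc1l1, the sterol transporter of enterocytes and, in humans, of hepatocytes, had 11.8, 2.18, 3.12 and 0.641 CPM in Low 5mC mice against 0.371, 0.761 and 0.896 CPM. Low 5mC replicates 1 to 3 lay above all High 5mC mice, and the log2 fold change was 2.57 (SE 0.60), or 1.35 without replicate 1. Clca1, a protein of goblet cell mucus, had 17.3, 3.27, 6.32 and 0.763 CPM in Low 5mC mice against 0.256, 0.683 and 1.85 CPM (log2 fold change 3.08, SE 0.86), or 2.01 without replicate 1.

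**Figure D2:**
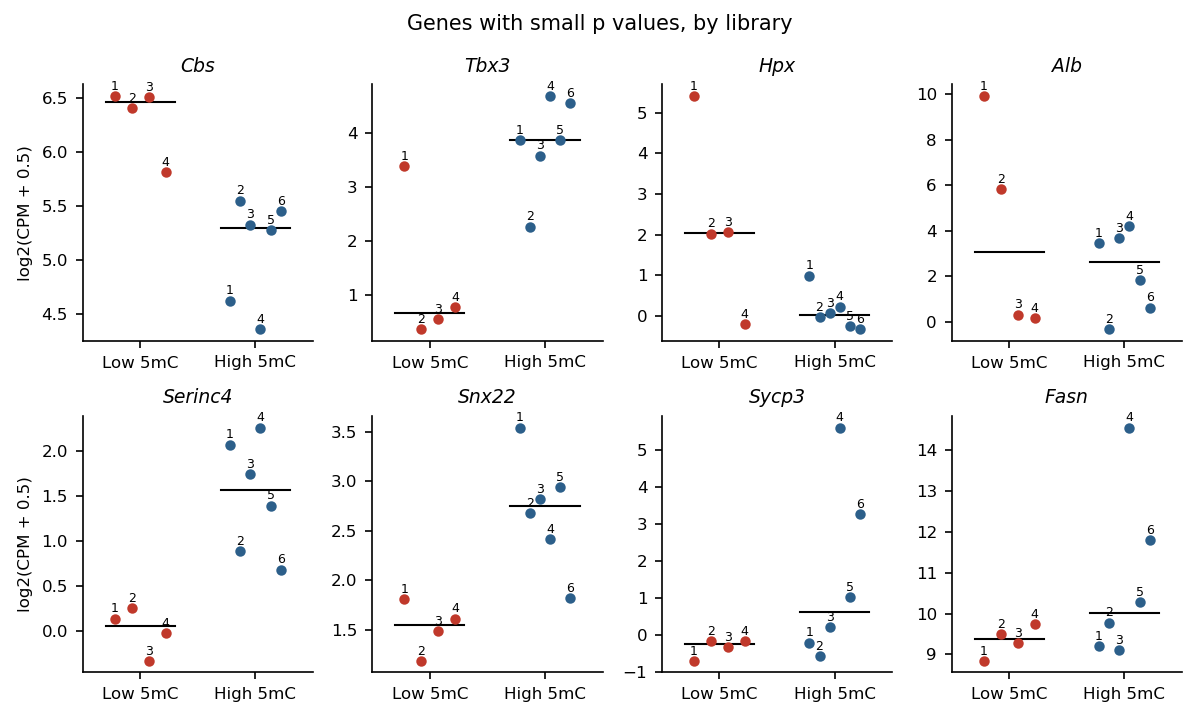
Levels of leading genes in each flown mouse as log2(CPM + 0.5), with Low 5mC mice in red, High 5mC mice in blue, replicate numbers above the points and group medians as bars. Cbs separates the groups, at 55.8 to 91.3 CPM in Low 5mC mice and 19.98 to 46.3 CPM in High 5mC mice, while the liver gene Hpx is highest in Low 5mC replicate 1 alone, at 41.9 CPM.

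On the lower side, the genes of smallest p were mostly faint genes whose exons share bases with an abundant gene on the opposite strand. Serinc4, which encodes a member of the serine incorporator family, had 0.602, 0.693, 0.297 and 0.488 CPM in Low 5mC mice and 1.11, 2.497 and 4.30 CPM as lowest, median and highest in High 5mC mice. The groups did not overlap. Serinc4 had a log2 fold change of -2.28 with an SE of 0.48 and an adjusted p of 0.879 in edgeR. Its exons share 1271 bases with Serf2, which is 27.7 times as abundant. Snx22, a sorting nexin, had 3.01, 1.78, 2.31 and 2.56 CPM in Low 5mC mice against 3.03, 6.23 and 11.1 CPM, also without overlap (log2 fold change -1.39, SE 0.34), and lies opposite Ppib, 18.0 times as abundant.

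Further such genes were Gm10390 opposite Rbm19 (36.5 times as abundant), 4930528A17Rik opposite Pnisr (49.98 times) and A230103J11Rik opposite Tnpo2 (146.2 times), with log2 fold changes of -2.11, -1.15 and -1.60. LOC105246506 and Tnk2os, both named after their values were seen, lie opposite Rbfa (44.2 times) and Tnk2 (364.9 times), with log2 fold changes of -2.04 and -2.13. LOC105246506 had 0.241, 0.198, 0.149 and 0.0610 CPM in Low 5mC mice against 0.591, 0.666 and 0.742 CPM as lowest, median and highest in High 5mC mice, without overlap. Of the 5, 10 and 20 genes of smallest p on the lower side, 5, 8 and 10 had a more abundant gene opposite, and of those on the higher side 0, 0 and 0. The sources used here do not give the strand setting of the counts, and a pair of this kind may share reads.

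The libraries also differed in a property that concerns the strand of the reads. The share of coding reads on the minor strand, the strand that holds fewer of them in the authors' mapping statistics, was 3.53%, 3.97%, 2.99% and 2.54% in Low 5mC mice. In High 5mC mice it was 4.75% to 8.01% with a median of 6.37%. The means were 3.26% ± 0.62 (SD, n = 4) and 6.38% ± 1.36 (SD, n = 6), and the groups did not overlap (exact permutation p = 0.00952, two-sided, the smallest that 210 divisions of the mice allow, adjusted p = 0.114 over 12 library values). Ground control mice had 5.97% to 9.55%. The 167 tested genes with an opposite gene at least 20 times as abundant had a median log2 fold change of -0.24, with 107 negative and 60 positive values, 16 of them lower and 0 higher at an unadjusted p under 0.05 (0.936% and 1.23% over all genes tested). Over the fits that left out 1 mouse the median was -0.30 to -0.16. With opposite genes at least 1 or 5 times as abundant it was -0.03 and -0.07, for 675 and 358 genes. Of these, 23 and 19 were lower and 6 and 4 higher at an unadjusted p under 0.05. With the minor-strand share as a covariate, the median of the 167 genes was -0.15. By mouse, the median centred log2 CPM of the 167 genes was -0.22, 0.14, -0.13 and -0.30 in Low 5mC mice and -0.01 to 0.31 in High 5mC mice. Low 5mC replicate 2, with a share of 3.97%, lay above 4 of the 6 High 5mC mice, and High 5mC replicate 1, with the highest share, was at 0.06. Whether the share accounts for the values of these genes was not tested. This threshold, this measure and this fit were chosen after the data were seen.

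**Figure D3:**
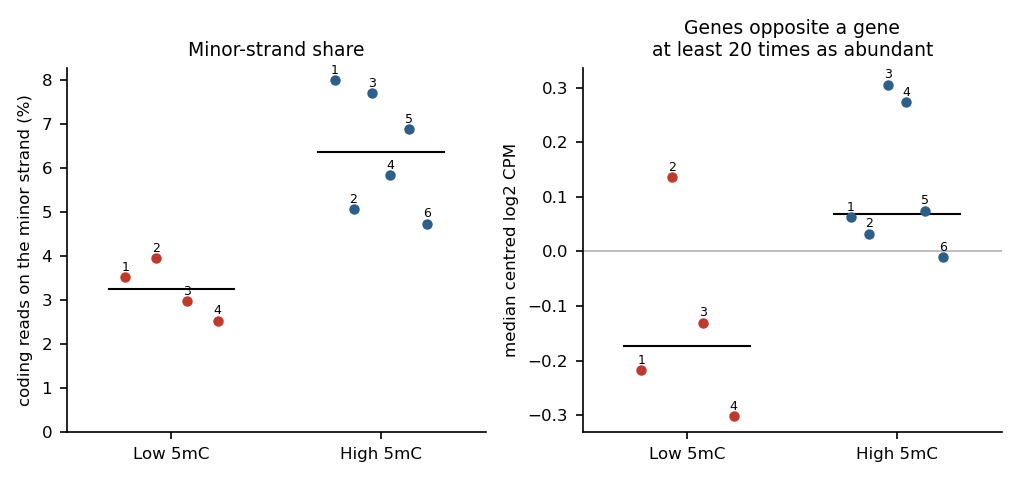
The share of coding reads on the minor strand, in percent (left), and the median centred log2 CPM of the tested genes opposite a gene at least 20 times as abundant (right), for each Low 5mC mouse in red and High 5mC mouse in blue, with replicate numbers and group medians as bars. All 4 Low 5mC mice, at 2.54% to 3.97%, are below all 6 High 5mC mice, at 4.75% to 8.01%, in the left panel, while in the right panel the groups overlap, with Low 5mC replicate 2 at 0.14 among the High 5mC mice at -0.01 to 0.31.

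Other genes of small p on the lower side had no abundant opposite gene. Muc6, a gel-forming mucin of the stomach, had 0.361, 0.594, 0.372 and 0.458 CPM in Low 5mC mice against 0.371, 1.28 and 1.70 CPM as lowest, median and highest in High 5mC mice (log2 fold change -1.52, SE 0.43). Fam69b had 0.422, 0.198, 0.0743 and 0.549 CPM in Low 5mC mice against 0.598, 1.13 and 16.1 CPM, without overlap. Tbx3, a T-box transcription factor that was also in the list of pluripotency factors, had 9.94, 0.792, 0.967 and 1.22 CPM in Low 5mC mice against 4.32, 14.1 and 25.2 CPM in High 5mC mice. Low 5mC replicates 2 to 4 lay below every High 5mC mouse, and the liver-rich replicate 1 lay within their range. Its log2 fold change in edgeR was -2.25 (SE 0.72, adjusted p = 1), and -3.76 without the liver-rich and the fat-rich library (adjusted p = 0.216), the lowest adjusted p of that fit. Over the alternatives its adjusted p was 0.135 to 1. In ground control mice Tbx3 had 8.29 to 32.2 CPM.

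Of 12 tested pluripotency factors, 4 values were positive and 8 negative, and 2 were lower at an unadjusted p under 0.05 (0.936% over all genes tested). The second, after Tbx3, was Tfcp2l1, at 0.783, 1.29, 1.26 and 1.19 CPM in Low 5mC mice against 1.48, 1.78 and 12.6 CPM in High 5mC mice (log2 fold change -1.80, SE 0.71, and -0.83 without both libraries). Klf4, which also acts in epidermal differentiation, had 494.7 and 414.0 CPM in Low 5mC replicates 2 and 3, and at least 95.4 CPM in replicates 1 and 4, against 108.1, 174.4 and 327.6 CPM as lowest, median and highest in High 5mC mice (log2 fold change 0.57, SE 0.48). Low 5mC replicates 2 and 3 were above and replicates 1 and 4 below the range of the High 5mC mice.

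Genes that are silenced by methylation in the soma gave few values. In the list of germline genes silenced by promoter methylation, 11 of 55 were in the table, 8 were tested and 1 was lower at an unadjusted p under 0.05. It was Sycp3, a protein of meiotic chromosome axes, with 0.120, 0.396, 0.297 and 0.397 CPM in Low 5mC mice, and 0.177, 1.10 and 48.6 CPM as lowest, median and highest in High 5mC mice. The 48.6 CPM was in High 5mC replicate 4 and the next, 9.16 CPM, in replicate 6, and the other 4 High 5mC mice had at most 1.54 CPM. The log2 fold change was -5.03 (SE 1.47), and -2.75 without both libraries, and Sycp3 shares 80 bases with Chpt1 on the opposite strand, 9.64 times as abundant. Of 36 imprinted genes tested, 14 values were positive and 22 negative, with a median of -0.09 and 1 at an unadjusted p under 0.05. That was Slc38a4, an amino acid transporter abundant in liver, at 34.5, 3.47, 1.93 and 2.47 CPM in Low 5mC mice against 0.222, 0.752 and 3.13 CPM in High 5mC mice (log2 fold change 3.08, SE 0.99), or 1.02 without the liver-rich library.

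Interferon-stimulated genes, which can respond to the release of repeats from methylation, had 23 positive and 13 negative values of 36 tested, with a median of 0.20, or 0.58 without both libraries, and 1 at an unadjusted p under 0.05. That was Oas3, a sensor of double-stranded RNA, at 3.25, 1.09, 2.08 and 0.976 CPM in Low 5mC mice against 0.256, 0.513 and 1.54 CPM in High 5mC mice (log2 fold change 1.41, SE 0.57). Usp18, an inhibitor of interferon signalling, had 6.08, 28.5, 10.1 and 4.73 CPM in Low 5mC mice against 3.32, 6.13 and 9.77 CPM (log2 fold change 1.04, SE 0.52). The median of the list was 0.75 within the ISS arm and -0.07 within the LAR arm. The summed level of the list was 336.0 to 460.7 CPM in Low 5mC mice and 166.9 to 934.0 CPM in High 5mC mice.

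Lipid genes had negative log2 fold changes that came with a pair of High 5mC libraries, the fat-rich replicate 4 and replicate 6. Fasn, fatty acid synthase, had 459.6, 719.3, 621.0 and 852.4 CPM in Low 5mC mice, and in High 5mC mice it had 23906 CPM in replicate 4, 3551 CPM in replicate 6 and 552.8 to 1238 CPM in the others. Its log2 fold change was -2.95 (SE 0.97), and -0.94 without both the liver-rich and the fat-rich library. Thrsp, a regulator of lipogenesis, had 9.52, 14.9, 4.54 and 8.27 CPM in Low 5mC mice, against 0.592 to 1494 CPM in High 5mC mice, which gave -5.04 on the log2 scale (SE 1.79). Leaving out both libraries gave -2.92 for Thrsp, and within the ISS arm its sign turned, to 1.98. Over all genes tested, 0.936% were lower and 1.23% higher at an unadjusted p under 0.05. In the fatty acid synthesis enzymes, 8 of 28 were lower at that threshold and 0 higher, and the median was -0.76, or -0.11 without both libraries, when 0 remained. In the adipocyte genes, 10 of 33 were lower and 0 higher, and the median was -2.21, or -0.10 without both libraries, when 0 remained. The summed level of the adipocyte genes was 1159, 1282, 1190 and 1013 CPM in Low 5mC mice, and 16730, 2498 and 491 to 1107 CPM in High 5mC replicate 4, replicate 6 and the others. By this sum, 3 of the 4 Low 5mC mice lay above those other 4 High 5mC mice, and the fourth above 3 of them. Within the ISS arm, which holds neither of those libraries, the median was 0.54, and within the LAR arm -3.03.

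Mammary epithelial genes, another cell type of a skin piece, had a median of -1.73 over 13 tested genes, with 2 positive and 11 negative values. The median was -0.59 without the fat-rich library, -1.20 without both libraries and 1.44 within the ISS arm, against -3.42 within the LAR arm. The ISS value was that of Pgr, the progesterone receptor, which was near the floor in that arm. Pgr had 0.361 and 0.297 CPM in Low 5mC replicates 1 and 2 and 0 to 0.371 CPM in High 5mC replicates 1 to 3. The summed level of the list was 900.8, 100.3, 70.6 and 91.8 CPM in Low 5mC mice and, in High 5mC mice, 1264 CPM in replicate 4, 459.0 CPM in replicate 6 and 54.0 to 93.5 CPM in the others, and Csn2, Wap and Lalba, the defining milk protein genes, were not in the table. Trf, transferrin, is a member of this list and of the liver list. It had 797.4 CPM in Low 5mC replicate 1, 452.9 CPM in High 5mC replicate 4 and 110.4 CPM in High 5mC replicate 6. Genes of NRF2 antioxidant response had 10 positive and 24 negative values of 34, with 3 lower at an unadjusted p under 0.05 (0.936% over all genes tested). They were Tkt and Pgd, enzymes of the pentose phosphate pathway, and Ftl1, a ferritin subunit. Ftl1 had 32.65 CPM in High 5mC replicate 1 and 1.43 to 4.57 CPM in the other High 5mC mice, against 0.792 to 2.47 CPM in Low 5mC mice. Its log2 fold change was -2.14, and -2.48 to -0.57 with 1 mouse left out. That of Pgd was -1.19, and -0.58 without both libraries. Tkt had 145.8, 61.0, 134.5 and 247.0 CPM in Low 5mC mice against 132.4, 252.8 and 3045 CPM as lowest, median and highest in High 5mC mice, with log2 fold changes of -2.31 and, without both libraries, -0.87. Hmox1, heme oxygenase 1, had the opposite sign, with 14.3, 113.6, 187.9 and 15.1 CPM in Low 5mC mice against 16.8, 25.0 and 59.7 CPM (log2 fold change 1.43, SE 0.68).

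**Figure D4:**
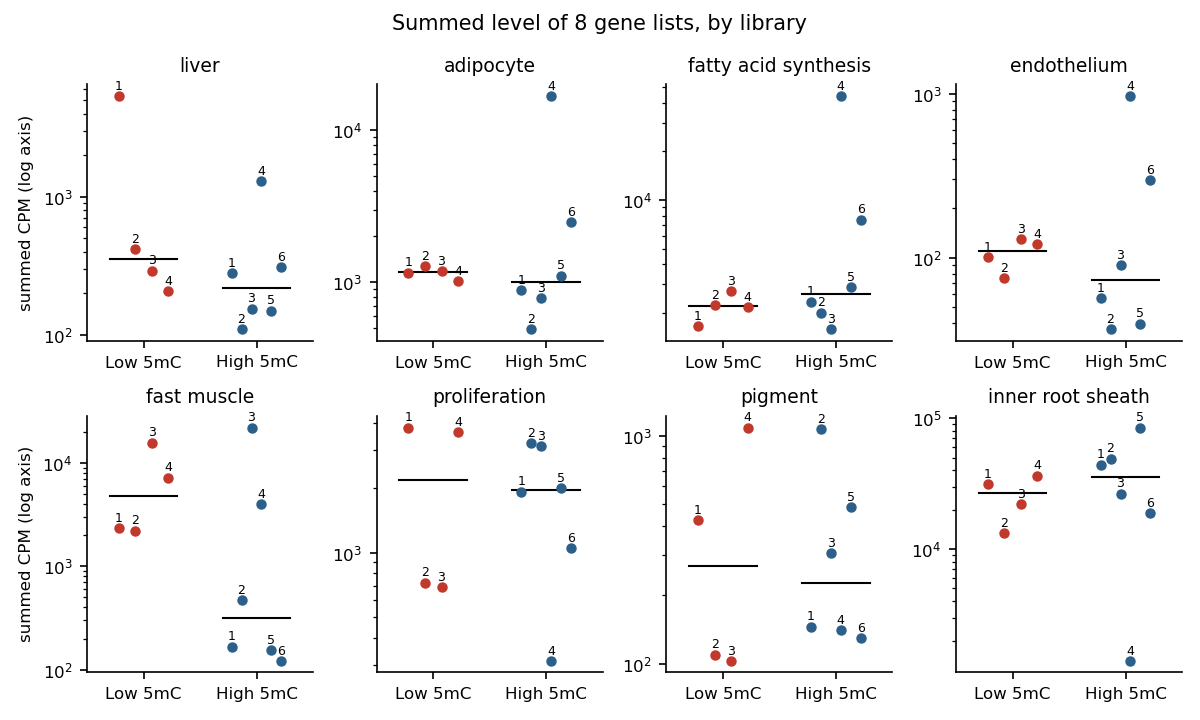
Summed CPM of 8 gene lists in each flown mouse on a log axis, with Low 5mC mice in red, High 5mC mice in blue, replicate numbers above the points and group medians as bars. The liver sum is highest in Low 5mC replicate 1, at 5341 CPM, and the adipocyte and endothelial sums in High 5mC replicate 4, at 16730 and 965.3 CPM.

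Genes of cell proliferation, pigment and the growing hair varied widely among the mice of each group. Cell proliferation genes summed to 3820, 724.8, 691.0 and 3638 CPM in Low 5mC mice, so replicates 1 and 4 were about 5 times as high as replicates 2 and 3, and they summed to 313.5 to 3230 CPM in High 5mC mice with a median of 1957 CPM. Of 66 tested, 48 values were positive and 18 negative, 0 had an unadjusted p under 0.05, and the median was 0.13, or -0.40 without both libraries, -0.38 within the ISS arm and 0.79 within the LAR arm. Melanocyte and pigment genes followed the same split in Low 5mC mice, with sums of 424.8, 109.6, 103.0 and 1084 CPM. Anagen hair matrix regulators summed to 1351, 663.8, 697.5 and 1763 CPM in Low 5mC mice and 260.4 to 2239 CPM in High 5mC mice. Their median log2 fold change was -0.17 over 31 tested, with 0 at an unadjusted p under 0.05. Inner root sheath genes, the keratins and trichohyalin relatives of the growing hair, summed to 13256 to 36348 CPM in Low 5mC mice and 1402 to 84704 CPM in High 5mC mice, with a median log2 fold change of -0.55 and 0 of 16 at an unadjusted p under 0.05. Krt27, an inner root sheath keratin, had 555.5, 52.2, 12.6 and 782.4 CPM in Low 5mC mice against 6.09, 482.1 and 1835 CPM in High 5mC mice, which gave a log2 fold change of -0.96 with an SE of 1.77, and -1.56 without both libraries.

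Epidermal differentiation genes had a median of 0.02 over 48 tested, with 26 positive and 22 negative values. Krt2, a keratin of the upper epidermis, was the 1 member at an unadjusted p under 0.05, at 4.10, 0.297, 0.520 and 1.53 CPM in Low 5mC mice against 0.222, 2.20 and 128.0 CPM in High 5mC mice, with a log2 fold change of -3.77 (SE 1.58), and of -0.45 without High 5mC replicate 1, the highest mouse. Sprr1b, a cornified envelope protein, was high in Low 5mC replicates 2 and 3, with 11.2, 65.1, 223.0 and 10.9 CPM in Low 5mC mice against 2.29, 9.63 and 55.7 CPM (log2 fold change 2.16, SE 1.03).

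Muscle, matrix and housekeeping lists gave no called gene either. Fast muscle sarcomere genes summed to 2361, 2225, 15815 and 7216 CPM in Low 5mC mice, against 121.9 to 22045 CPM and a median of 318.6 CPM in High 5mC mice. High 5mC replicates 3 and 4 held most of the muscle RNA of their group, and the median log2 fold change of the 25 tested genes was 0.39. It was -1.40 in the ISS arm and 3.12 in the LAR arm. Ttn, titin, alone had 915.2 to 11206 CPM in Low 5mC mice and 7.60 to 14560 CPM in High 5mC mice. The 74 tested subunits of oxidative phosphorylation had 5 positive and 69 negative values, 0 at an unadjusted p under 0.05 and a median of -0.32, or -0.06 without both libraries. With the minor-strand share as a covariate, a fit added after the data were seen, their median was -1.55, with 45 of the 74 lower at an unadjusted p under 0.05. Over all 14107 genes tested, 764 were lower at this threshold in that fit, against 132 without the covariate, and 224 were higher, against 174. In the same fit the median turned to -2.42 for the fast muscle genes and to 1.42 for the inner root sheath genes, with 0 at an unadjusted p under 0.05 in either, and was -3.41 for the adipocyte genes. The share does not overlap between the groups, so this fit separates it from the group only by its spread within them. The fit also holds the ground control mice, whose fast muscle sums had a median of 1841 CPM and a highest value of 305248 CPM. Ribosomal protein genes had a median of -0.13 over 76 tested and collagen and fibroblast matrix genes -0.20 over 47 tested, with 0 at an unadjusted p under 0.05 in either. Of 43 lists with at least 10 tested genes, 37 had a median between -0.5 and 0.5, and the 6 others were the liver, adipocyte, fatty acid synthesis, endothelial, mammary and inner root sheath lists. Without the liver-rich and the fat-rich library, 9 lists lay outside that range. They were the liver, mammary, inner root sheath, anagen, hair shaft keratin, interferon, fast muscle, muscle regulator and T cell lists. The inner root sheath median was then -1.12 and that of the hair shaft keratins -1.33.

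**Figure D5:**
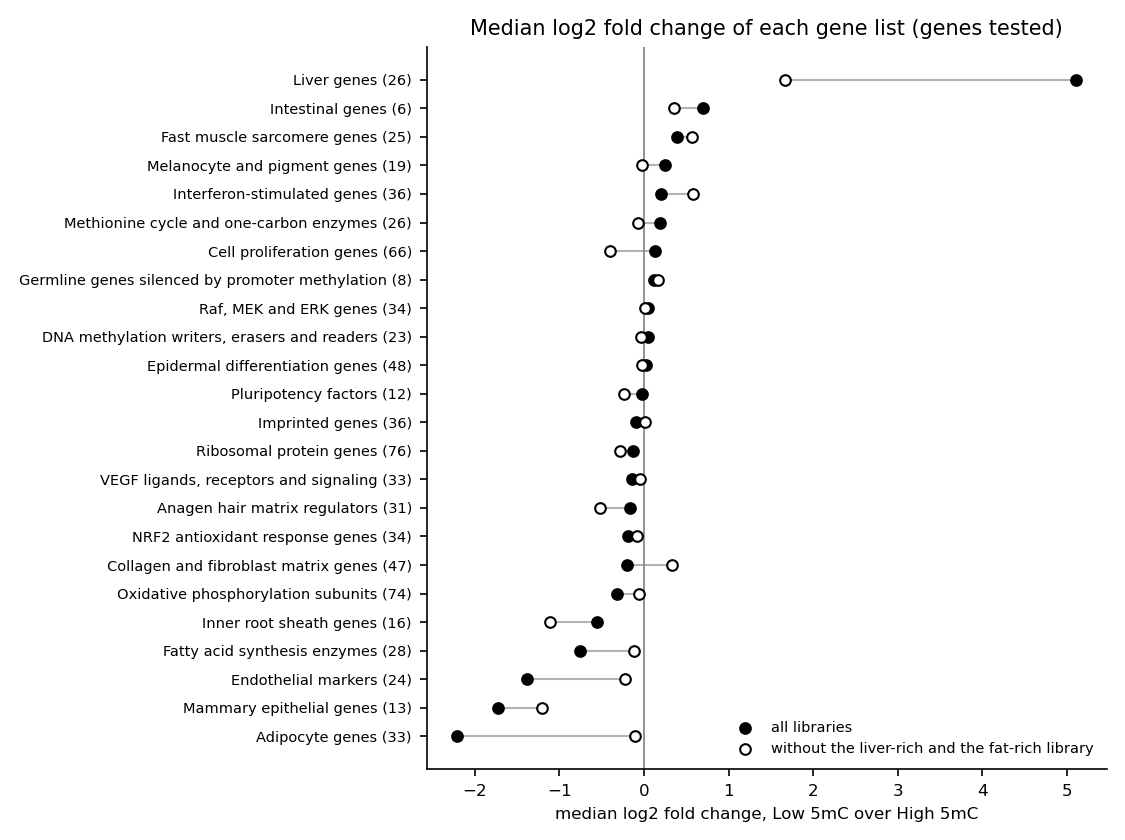
Median log2 fold change, Low 5mC over High 5mC, of 24 gene lists, with the number of genes tested in brackets, for all flown libraries and without the liver-rich and the fat-rich library. The liver list lies at 5.11 with all libraries and 1.67 without both, and the adipocyte list at -2.21 and -0.10.

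Genes whose groups did not overlap were few: 15 were higher (0.106%) and 16 lower (0.113%) in Low 5mC mice, of 14107. Of the 16 lower genes, 6 (37.5%) had a more abundant gene opposite, against 4.78% of all genes tested. Among genes with an average log2 CPM over 3, 10 were higher and 3 lower without overlap. After Cbs, the widest gaps were in Gt(ROSA)26Sor, a long noncoding RNA, Rlf, a zinc finger protein, D15Ertd621e and Epb4.1l5, a cytoskeletal linker. Gt(ROSA)26Sor had 14.6, 8.22, 9.59 and 9.92 CPM in Low 5mC mice against 5.38, 5.997 and 7.26 CPM as lowest, median and highest in High 5mC mice (log2 fold change 0.77, SE 0.28). It lies opposite Thumpd3, 3.49 times as abundant, with which its reads may not be separated. Rlf had 69.1, 63.1, 66.5 and 66.8 CPM in Low 5mC mice against 42.2, 54.3 and 58.0 CPM (log2 fold change 0.35, SE 0.17). Its Low 5mC values lay closer together than its High 5mC values. Sel1l, a subunit of the machinery that removes misfolded proteins from the endoplasmic reticulum, had 63.9, 61.5, 58.2 and 57.0 CPM in Low 5mC mice against 65.8, 69.4 and 83.6 CPM (log2 fold change -0.24, SE 0.17). Tsfm, a mitochondrial translation factor, had 6.93, 9.71, 9.14 and 9.64 CPM in Low 5mC mice against 10.0, 10.6 and 14.9 CPM. None of these genes passed the test over all genes. In these genes the gap is small beside the level, and the widest, that of Cbs, was 0.27 on the log2 scale.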

How the data were processed

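RNA sequencing libraries of 10 flown mice and 6 ground control mice were used, prepared by the authors with exon capture. Per the submitters' processing notes and the paper, the authors used STAR and mm10, dropped poorly or multiply mapped reads, and deposited raw counts per gene from featureCounts. The strand setting of the counting and any filter on low counts are not given in the sources used here, and the mapping statistics speak of files before deduplication. The percent deposited by the authors is the DV200, the share of RNA fragments over a set length, and the deposited score is the RNA integrity number. Shares of reads by region come from read numbers in the deposited mapping statistics. Columns with log2 FPKM and with the authors' own fold changes and p-values were not used.

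Of 14858 genes, those kept by edgeR's filterByExpr on the 3 groups (14107) were scaled by TMM and fitted over all 16 libraries, and Low 5mC minus High 5mC was tested by edgeR's robust quasi-likelihood F test (edgeR 4.0.16, limma 3.58.1, R 4.3.3), with Benjamini-Hochberg adjustment at a threshold of 0.05. SE was derived from each log2 fold change and its F test. CPM are counts scaled by the library total and its TMM factor, and overlap of the groups was judged on log2 CPM, at a prior count of 2. Library values were compared by exact permutation over the 210 divisions of 10 mice into 4 and 6, two-sided. The test was tried on simulated data with known changes. Those data held no liver-rich or fat-rich library, so the trial is no measure of what the test can find here. Libraries of 1 group were compared for duplicates over 21 pairs, and none agreed within sampling noise (chi-square per degree of freedom 71.3 to 361.5). Opposite-strand genes were found from the exon coordinates of the count table. Tables were prepared in Python 3.11.15.

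The members, the 48 gene lists and the tests were chosen with earlier results of these data known. Named genes follow a rule: Araf, Flt1, Vegfb, Vegfa, Kdr and the DNMT and TET genes; by smallest p, 10 genes in each direction with an average log2 CPM over 0; up to 4 genes of smallest p in each list described; the 2 most abundant genes of the liver, adipocyte and muscle lists; and the 5 higher and 5 lower genes of widest gap with an average log2 CPM over 3. Genes outside it are marked so. A comparison of genes by the CG content of their promoter was void, since 11106 of 14107 genes (78.73%, under the minimum of 80%) matched a RefSeq window, 10588 by symbol and 518 by an older symbol. Alternatives were limma-voom with quality weights, DESeq2 1.42.0, edgeR's likelihood ratio test, RLE size factors, other filters, no robust estimation, flown libraries alone, arm or RNA integrity as a covariate, fits within arms, no Rn45s and libraries left out. The minor-strand share as a covariate, a fit without genes under a more abundant opposite gene, the opposite-strand thresholds and the recounts of non-overlapping genes were chosen after seeing the data. Library numbers run in group order, so group and preparation order cannot be told apart.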

Additional observations from a re-analysis of the deposited data

Results flagged for a closer look

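A mouse far from the others of its group was looked for in 158 sets of values, and 24 (15.19%) held one. In independent sets chance gives about 1 in 20. These sets share the same mice and include genes chosen by small p or wide gap, so that rate is not a measure for them. In Low 5mC mice, replicate 1 stood apart in the summed CPM of mammary epithelial genes (900.8, of which 797.4 was Trf, also in the liver list), in Muc2 (106.9 CPM), Tbx3 (9.94 CPM) and D15Ertd621e (52.95 CPM), and below the others in 1500011K16Rik (15 CPM). Replicate 2 stood apart in Araf (123.9 CPM), replicate 3 in DV200 (79.0%), and replicate 4 on the low side in Cbs (55.77 CPM), in rRNA reads (13.32% of raw reads) and in intergenic reads (1.616%).

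In High 5mC mice, replicate 1 had the fewest genes with at least 10 counts (10525) and the most Rn45s counts (51.93%), rRNA reads (57.29% of raw reads) and intergenic reads (9.848%). It was also lowest in Araf (59.37 CPM), Dnmt3b (3.339 CPM) and Muc6 (0.371 CPM). The fat-rich replicate 4 was highest in Vegfb (11.74 CPM), Sel1l (83.56 CPM) and the summed CPM of NRF2 genes (5764.0), and lowest in Dnmt1 (107.4 CPM) and the summed CPM of inner root sheath genes (1402.1). Apoa5 stood apart in replicate 3 (0.33 CPM) and 4930528A17Rik in replicate 6 (3.028 CPM).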

How the results depend on the processing

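The count of 0 called genes was the same under all alternatives run except DESeq2, which called 5. Genes at an unadjusted p under 0.05 numbered 129 with at least 10 counts in each flown library, 191 with RNA integrity as a covariate, 203 without the liver-rich and the fat-rich library, 503 within the LAR arm, 226 to 470 with 1 mouse left out (226 without High 5mC replicate 4, 469 without High 5mC replicate 1 and 470 without Low 5mC replicate 4), and 988 with the minor-strand share as a covariate (224 higher and 764 lower), which was added after seeing the data. Genes without overlap numbered 52 to 167 with 1 mouse left out and 159 without both libraries, since fewer mice were compared. Within the LAR arm the log2 fold change was -2.07 for Itih3, -1.22 for F2, -0.43 for Muc2, -0.42 for Serpinc1, -4.13 for Trf, -3.45 for Alb, -1.41 for Itih4 and 0.019 for Krt2. Within the ISS arm it was 1.98 for Thrsp, 1.66 for Lep, 1.39 for Retn, 0.23 for Acaca and 2.55 for Ltf. Gnmt had -0.41 to 2.80 with 1 mouse left out and -0.64 without both libraries, and Ftl1 had 0.046 with the minor-strand share. The cause of these shifts was not tested. No paired analysis was possible because the mice of the groups are different animals and their numbers share no litter or batch. Each arm holds 2 Low 5mC and 3 High 5mC mice, and the total count went down to 4159342 in High 5mC replicate 1, which limits faint genes.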
